A study of Mus musculus with 4 samples.

Results

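The genes described here encode the mitochondrial respiratory chain and the ATP synthase in dermal fibroblasts, which make the collagen matrix of the skin. The set was chosen with earlier results of these data known, and its members were taken by a rule on gene names. The rule took all symbols beginning with Nduf (complex I), Sdh (complex II), Uqcr (complex III), Cox4 to Cox8 (complex IV) or Atp5 (ATP synthase). It also took ND5, a complex I subunit encoded by mitochondrial DNA. The rule found 95 of the 18193 genes on the arrays, read by 186 probe sets that each name a single gene. A probe set is the group of short oligonucleotides that reads 1 transcript. Of the 95 genes, 89 had a mean level over the 4 arrays at or above the level cutoff, the 40th percentile of all genes (5.28 on the log2 scale), and 6 lay under it: Cox4i2, Cox7a1, Cox7b2, Cox7c, Ndufb4 and Sdhaf3. A level under the cutoff describes the single-gene probe sets and is not read as absence of the transcript, as for Cox7c and Ndufb4. The counts below are over the 89.

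The respiratory chain passes electrons from NADH and succinate through complexes I, II, III and IV to oxygen and pumps protons across the inner mitochondrial membrane. The ATP synthase lets the protons flow back and makes ATP. Most of the subunits are encoded in the nucleus and imported, a few core subunits of complexes I, III and IV and of the ATP synthase are encoded by mitochondrial DNA, and assembly factors join the subunits without being part of the finished enzyme.

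The study compared fibroblasts with and without the gene Rbpj, which encodes RBP-Jk. This protein, known also as CSL, binds DNA and links activated Notch receptors to their target genes. In vitro, the labels give an adenovirus with Cre recombinase (Adeno Cre) for the deleted cells and an adenovirus with GFP (Adeno GFP) for the control cells. In vivo, the deleted cells carried a Cre labelled ColI with a loxP-flanked RBP gene (RBP loxp-loxp), and the control carried the loxP-flanked gene without Cre. All were labelled C57BL/6. The deletion in vivo is limited to cells in which the ColI Cre was active, and neither the age of the mice nor whether the in vivo cells were grown in culture is stated in the sources used here. Each of the 4 groups had 1 array, so a difference between a deleted and a control array has no replicate check, carries no p-value and no error, and is given as a description of those arrays. The number of arrays limits the precision. In bulk RNA, fewer cells of a type and less RNA per cell cannot be told apart.

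The labels were checked first. The brightest Rbpj probe set gave log2 levels of 7.48 in the in vitro deleted array, 8.58 in its control, 8.51 in the in vivo deleted array and 8.61 in its control. The second probe set differed by -1.34 in vitro and -0.83 in vivo and the dimmest by 0.096 and -0.49, so size and direction of the difference depended on the probe set, and whether any lies in the deleted part of the gene is not given in the sources used here. All 9 fibroblast markers were above the level cutoff on every array. In the in vivo pair, many keratinocyte and skeletal muscle genes differed together with the deletion label. At least 2-fold higher in the deleted array were 5 of 7 keratinocyte and 7 of 9 muscle markers above the cutoff, where 2.81% of all genes were. The largest differences were 5.29 on the log2 scale for Krt6a and 2.99 for Actc1. The cutoff is on the mean of the 4 arrays, so a marker high on the in vivo deleted array alone can pass it, which partly sets these shares. Of the keratinocyte markers under it, Krt1, Trp63 and Cdh1 differed by -0.19, -0.45 and 1.66. Of the muscle markers under it, Myh1, Myod1 and Myog differed by 0.74, 0.80 and 2.12. In the in vitro pair, 3 of the 7 keratinocyte markers were at least 2-fold lower in the deleted array, where 1.15% of all genes were. They were Krt14 (3.08-fold), Krt17 (2.47-fold) and Krt5 (2.04-fold). Of the 9 muscle markers, 2 were at least 1.5-fold lower in vitro, where 9.66% of all genes were. Both lay near or under the cutoff of 5.28 in vitro. Tnnc2 (2.02-fold) read 4.31 and 5.32 and Myh3 read 4.02 and 4.72, deleted array first. The medians were -0.41 for the keratinocyte list and -0.45 for the muscle list, while 8 of 9 fibroblast markers were higher, with a median of 0.22. In vivo 6 of 9 fibroblast markers were lower, with Lum at -1.06 on the log2 scale. The part of other cells' RNA in the member differences was not tested. The in vitro control array stood apart from the other 3 in the control probe sets that read the 3′ and 5′ ends of a transcript. Its Gapdh signal at the 3′ end exceeded that at the 5′ end by 1.003 on the log2 scale, against 0.019 on the in vitro deleted array and 0.13 and 0.14 on the deleted and control arrays in vivo. For Actb the excess was 1.11 against 0.40, 0.15 and 0.41 on the same arrays. For Pcx it was 3.16 against 2.01, 0.83 and 1.10, while Tfrc, whose 5′ signal lay near the bottom of the scale, did not follow this order. The cDNA was primed from the poly(A) tail, the members are mostly short genes, and these values are therefore set beside the results below.

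In vitro, most respiratory chain genes were lower in the deleted array. Of the 89 genes, 82 were lower and 7 higher, where 57.5% of all genes were lower, with a median log2 difference of -0.57 against -0.063 over all 10916 genes analysed. A difference of at least 1.5-fold toward lower was seen for 43 genes, where 9.66% of all genes passed that size (the members' share was 48.3%). With the trend on gene span removed (described below with gene span), the count was 25, against 5.96% of all genes, and the median -0.38. At least 1.5-fold higher was ND5 alone, where 5.10% of all genes passed. A 2-fold size toward lower was passed by 7 of the 89, against 1.15% of all genes, and toward higher by ND5, against 0.788%. In vivo the same genes lay close to the background. There, 55 were lower and 34 higher, where 53.6% of all genes were lower, with a median of -0.065 against -0.032 over all genes, and 5 were at least 1.5-fold lower, a share of 5.62% where 11.2% of all genes passed. At least 1.5-fold higher in vivo was Ndufaf4 alone, where 8.02% of all genes passed, and none of the 89 reached 2-fold in vivo, where 3.81% of all genes were lower and 2.81% higher by that size. Lower in the deleted array of both systems were 52 of 89 genes (58.4%), against 33.2% of all genes. With 92.1% of members lower in vitro, this share is tied closely to the 61.8% lower in vivo, and no shared effect is read from it.

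**Figure D1:**
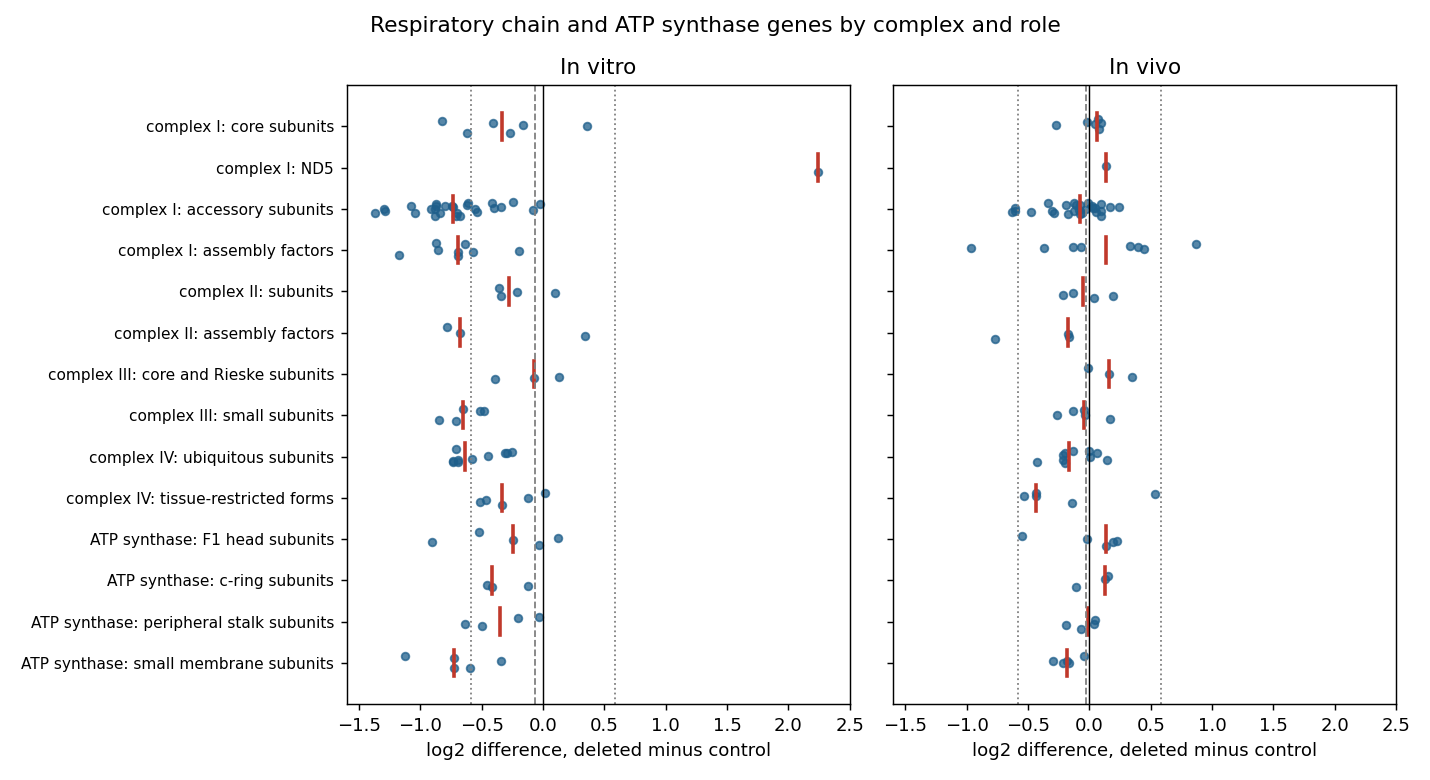
Log2 difference (deleted minus control array) for each of the 89 genes (points), by complex and role, in vitro (left) and in vivo (right). Red bars are group medians, the dashed line is the median of all genes analysed, and dotted lines mark 1.5-fold. In vitro nearly all points lie left of 0 and ND5 lies alone at 2.24, while in vivo the points spread around 0.

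The start regions of 4 of these genes are shown because they include the in vitro lowest gene with a single promoter entry (Ndufs5) and the members with a motif of nuclear respiratory factor NRF1 in the 150 bases before the transcription start, including the gene highest in vivo (Ndufaf4). NRF1 is an activator of nuclear genes for mitochondrial proteins. Each line holds those 150 bases, 5′ to 3′ on the gene's strand, from RefSeq (assembly GRCm38.p6), in lower case with motif matches in capitals.
Ndufs5, chr4:123718187-123718336, minus strand: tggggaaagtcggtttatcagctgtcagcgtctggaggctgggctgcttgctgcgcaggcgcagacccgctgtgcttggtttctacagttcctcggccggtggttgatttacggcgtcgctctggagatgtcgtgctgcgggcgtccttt
Atp5g2, chr15:102671048-102671197, minus strand: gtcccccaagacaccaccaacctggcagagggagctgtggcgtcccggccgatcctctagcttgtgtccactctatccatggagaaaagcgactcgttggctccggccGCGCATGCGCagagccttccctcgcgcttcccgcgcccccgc
Atp5k, chr5:108434400-108434549, minus strand: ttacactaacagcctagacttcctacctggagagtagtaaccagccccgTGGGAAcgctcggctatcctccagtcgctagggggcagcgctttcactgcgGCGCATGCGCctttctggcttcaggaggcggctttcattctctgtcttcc
Ndufaf4, chr4:24897933-24898082, plus strand: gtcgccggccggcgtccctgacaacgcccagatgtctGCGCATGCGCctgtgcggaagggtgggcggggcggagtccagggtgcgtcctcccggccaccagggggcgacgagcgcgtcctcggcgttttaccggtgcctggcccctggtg
The NRF1 motif searched is the 10 bases in capitals in the Atp5g2 line. It is its own reverse complement, and its first base lay 42 bases upstream of the start in Atp5g2, 50 in Atp5k and 113 in Ndufaf4. The capitals TGGGAA in Atp5k, 101 bases upstream, are the CSL core motif, and the Ndufs5 stretch held neither motif. Over a window of 250 bases upstream and both strands, 73 of the 88 nuclear-encoded members had a promoter entry. Of these, 4 (5.48%) held the NRF1 motif, against 1.85% of the 8828 genes above the level cutoff that had an entry. The ETS core CCGGAAG was found in 15 members (20.5%) and 15.9% of those genes, CSL's TGGGAA in 12 (16.4%) and 23.5%, and the TATA box TATAAA in 6 (8.22%) and 7.75%. None of these motifs contains another. A match describes letters in this window and is not a binding site.

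Complex I, the NADH dehydrogenase and the entry point of electrons from NADH, gave the lowest median in vitro. Of its 42 genes, 40 were lower, 27 by at least 1.5-fold, with a median of -0.69. The accessory subunits, which surround and stabilise the catalytic core, accounted for most of this: all 27 were lower, 19 by at least 1.5-fold, with a median of -0.73. Ndufa5, an accessory subunit of the matrix arm, had log2 levels of 8.45 in the in vitro deleted array, 9.82 in the in vitro control, 9.19 in the in vivo deleted array and 9.27 in the in vivo control. The in vitro control was the highest of the 4 and the in vitro deleted array the lowest, a difference of 2.59-fold. Its probe sets gave in vitro differences from -1.37 to -0.87, and -0.078 was the in vivo difference of the brightest. Ndufa2, a small matrix-arm subunit with a thioredoxin-like fold, had levels of 9.65, 10.95, 10.18 and 10.49 on the same arrays in the same order, 2.46-fold lower in vitro and -0.30 on the log2 scale in vivo. Ndufs5, an accessory subunit facing the intermembrane space, read 7.64, 8.93, 9.41 and 9.58 and so differed by 2.44-fold in vitro and -0.18 in vivo. For Ndufs5 both in vitro levels were under both in vivo levels, unlike for Ndufa5 and Ndufa2. Ndufb10, a subunit of the membrane arm, read 8.40, 9.44, 9.13 and 9.21, which is 2.06-fold lower in vitro and -0.077 in vivo.

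Ndufa6, an accessory subunit of the LYR protein family, was lower in both systems. Its levels were 8.19 and 9.27 in vitro and 8.97 and 9.58 in vivo, deleted array first, which is 2.11-fold and 1.52-fold lower. Ndufv3, a small subunit of the NADH-oxidising module, read 9.87 and 10.71 in vitro and 10.17 and 10.80 in vivo, and its in vivo difference of -0.63 was 1.55-fold. Ndufa3, a small membrane-arm subunit, read 10.75 and 11.49 in vitro and 10.98 and 11.59 in vivo, 1.53-fold lower in the latter. For Ndufa6, Ndufv3 and Ndufa3 both deleted arrays lay below both control arrays. At the other end of the group, Ndufa10, a subunit with a nucleoside kinase fold (-0.084 in vitro), and Ndufab1, the mitochondrial acyl carrier protein (-0.027), differed little, and their in vivo differences were 0.097 and 0.098. Ndufa12 differed by -0.24 in vitro and 0.24 in vivo, and Ndufa1, a small subunit of the membrane arm and the most central of the group, by -0.73 and -0.34. Between the ends, Ndufb7, Ndufb3, Ndufb2, Ndufb11, Ndufb9 and Ndufb8, subunits of the membrane arm, differed by -0.91 to -0.80 in vitro. In vivo 18 of the 27 accessory subunits were lower, with a median of -0.078. Lower by at least 1.5-fold were 3 of them (11.1%), a share like the 11.2% of all genes.

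The nuclear-encoded core subunits of complex I, which carry the flavin and the iron-sulphur clusters, lay nearer to the background in vitro than the accessory subunits. Of 6, 5 were lower, 2 by at least 1.5-fold, with a median of -0.34, and in vivo their median was 0.058. Ndufs7, which carries the last cluster before ubiquinone, was the lowest of them, with levels of 8.79 in the in vitro deleted array and 9.61 in its control, against 9.49 and 9.51 in vivo. Ndufs3 differed by -0.62 in vitro and 0.077 in vivo. Ndufs1, the largest subunit and carrier of 3 iron-sulphur clusters, went the other way, with 9.06 in the in vitro deleted array, 8.71 in its control, 9.12 in the in vivo deleted array and 9.08 in the in vivo control. Here the in vitro control was the lowest of the 4 arrays and the other 3 lay within 0.06 of each other. Ndufs8, which carries a pair of clusters, differed by -0.27 in both systems for its brightest probe set only. Of its 6 probe sets above the cutoff, the brightest had the smallest difference in vitro and the largest in vivo. A probe set of similar mean level gave -0.51 in vitro but -0.047 in vivo, so the equal size is not read as shared. Ndufv2 depended on the probe set, with in vitro differences from -0.82 to -0.16.

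ND5, a proton-pumping subunit made inside the mitochondrion, had the highest difference of all 89 genes in vitro. Its levels were 12.41 in the in vitro deleted array, 10.17 in the in vitro control, 12.36 in the in vivo deleted array and 12.23 in the in vivo control. The in vitro control alone was low, by 4.72-fold against the deleted array, and the other 3 arrays were close together. This is the array with the excess of 3′ over 5′ signal, and the part of that imbalance in the ND5 value was not tested. The direction of ND5 was opposite to that of most nuclear-encoded members on the same 2 arrays. No other gene of mitochondrial DNA was read by the rule, so ND5 stands alone for that genome.

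Of the 8 complex I assembly factors, all were lower in vitro, 6 by at least 1.5-fold, with a median of -0.69. In vivo the group split, with 4 lower, 4 higher and a median of 0.13. Ndufaf8, which stabilises the assembly factor Ndufaf5, read 8.29 and 9.46 in vitro and 9.15 and 9.28 in vivo, 2.25-fold lower in vitro. Ndufaf3, which acts early in assembly of the matrix arm together with Ndufaf4, read 6.89 and 7.76 in vitro and 6.70 and 7.67 in vivo, 1.83-fold and 1.96-fold lower, with both deleted arrays below both controls. Ndufaf4 itself did not follow it. Its levels were 8.88 and 9.08 in vitro and 9.15 and 8.29 in vivo. It was 1.82-fold higher in the in vivo deleted array, and the in vivo control was the lowest of the 4. The Ndufaf4 probe sets gave in vivo differences from 0.60 to 0.87. Ndufaf1, an early factor of the membrane arm, differed by -0.69 and -0.37. Ndufaf2, Ndufaf5 and Ndufaf6 differed by -0.69, -0.86 and -0.64 in vitro and by 0.44, 0.33 and 0.39 in vivo. They thus took opposite directions in the systems, and no test of that difference was possible with 1 array per group.

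**Figure D2:**
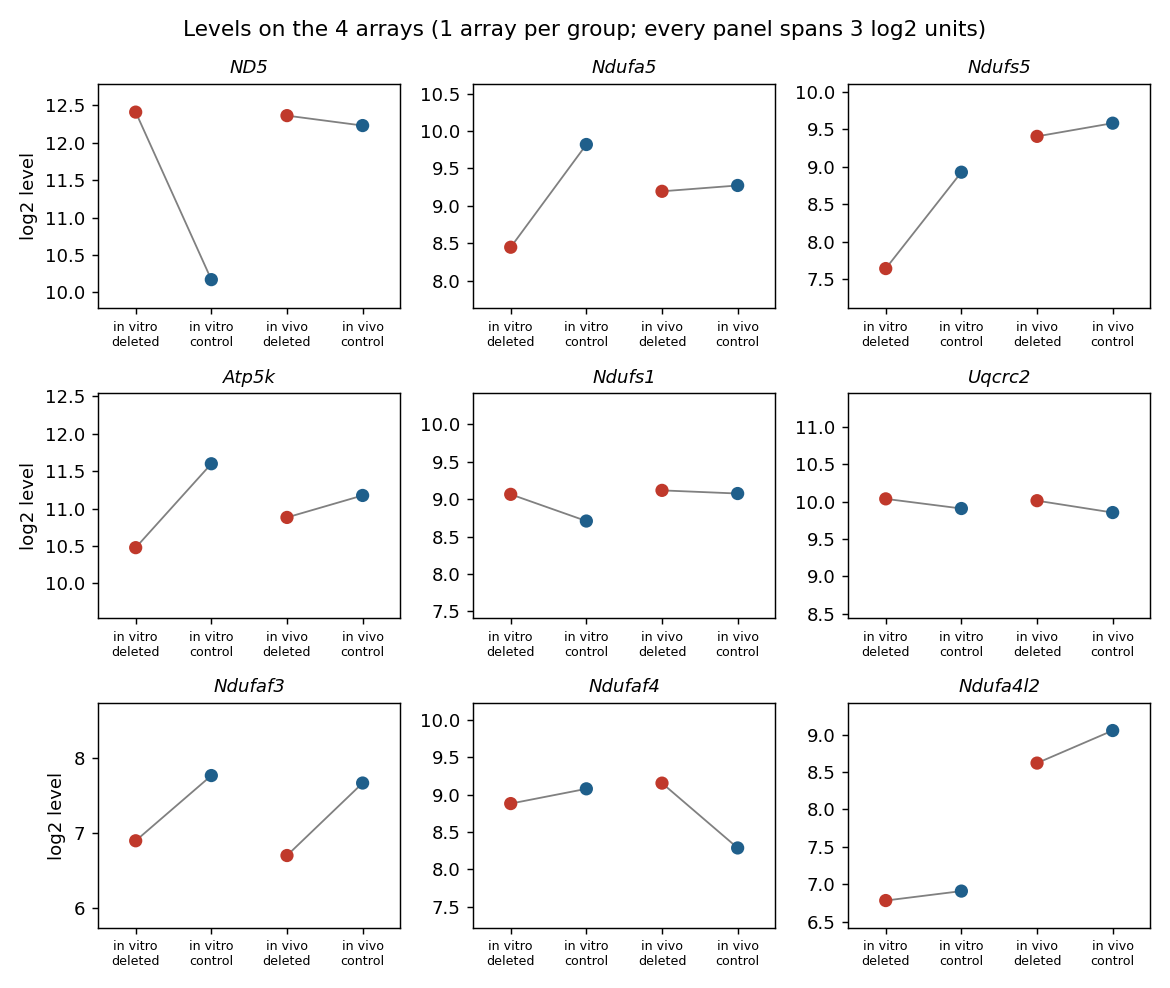
Log2 level of 9 genes on the 4 arrays (red, deleted; blue, control; lines join the arrays of a pair; every panel spans 3 log2 units). ND5 and Ndufs1 have their lowest level on the in vitro control array, Ndufa5 and Atp5k have their highest there, Ndufaf3 is low on both deleted arrays, and Ndufa4l2 is higher on both in vivo arrays.

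Complex II, succinate dehydrogenase, is the enzyme shared by the respiratory chain and the citric acid cycle, and all of its subunits are nuclear-encoded. Its 4 subunits had a median of -0.28 in vitro and -0.049 in vivo and none past 1.5-fold. In vitro this was nearer to 0 than the accessory subunits of complex I (-0.73) and close to its core subunits (-0.34). With the trend on gene span removed, the in vitro median was -0.15 for these 4 and for the complex I core subunits. Sdha, the flavoprotein subunit, read 10.21 and 10.11 in vitro and 9.91 and 10.04 in vivo. Its probe sets disagreed in direction in vitro, from -0.30 to 0.10, as did those of Sdhc, a membrane anchor, from -0.34 to 0.16. Sdhb, the iron-sulphur subunit, differed by -0.36 in vitro and the membrane anchor Sdhd by -0.21. Among the 3 assembly factors above the cutoff, Sdhaf4, which helps assemble flavinated Sdha, read 8.17 and 8.95 in vitro and 7.83 and 8.60 in vivo, which is 1.72-fold and 1.71-fold lower, with both deleted arrays below both controls. Sdhaf1, which serves Sdhb, differed by -0.68 in vitro. Sdhaf2, which adds the flavin to Sdha, differed by 0.34, with probe sets from -0.40 to 0.34.

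Complex III, the cytochrome bc1 complex, passes electrons from ubiquinol to cytochrome c. Its 5 small subunits were all lower in vitro, 3 by at least 1.5-fold, with a median of -0.65, while its 2 core proteins and the Rieske protein had a median of -0.072. Uqcr11, a small membrane subunit, read 9.39 and 10.24 in vitro and 9.72 and 9.86 in vivo. Uqcrq, Uqcrh, Uqcrb and Uqcr10 differed by -0.71, -0.65, -0.51 and -0.48 in vitro, and Uqcrq by -0.13 when the median of all of its probe sets was taken. Uqcrc1, a core protein, read 10.26 and 10.65 in vitro and 10.97 and 10.62 in vivo, opposite in direction. Uqcrc2, the other core protein, read 10.04 and 9.91 in vitro and 10.01 and 9.85 in vivo, and its 4 levels lay within 0.2 of each other. Its probe sets disagreed in direction in vitro, from -0.22 to 0.13. Uqcrfs1, the Rieske iron-sulphur protein, differed by -0.072 and -0.010. In vivo the small subunits had a median of -0.044 and the core and Rieske proteins of 0.16.

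Complex IV, cytochrome c oxidase, reduces oxygen, and several of its nuclear-encoded subunits exist in a ubiquitous and a tissue-restricted form. All 10 ubiquitous members above the cutoff were lower in vitro, 5 of them by at least 1.5-fold, with a median of -0.64 in vitro and -0.17 in vivo. Cox4i1, the ubiquitous form of the largest nuclear-encoded subunit, read 11.51 and 12.21 in vitro and 11.82 and 12.02 in vivo. Cox7a2l, which joins complex III to complex IV in supercomplexes, read 10.16 and 10.89 in vitro and 10.47 and 10.89 in vivo, with equal levels on the control arrays and lower levels on the deleted arrays. Cox7a2, the ubiquitous partner of Cox7a1, read 11.31 and 12.00 in vitro and 11.94 and 11.87 in vivo. Cox5a and Cox6b1 differed by -0.73 and -0.71 in vitro and by 0.15 and -0.20 in vivo. Cox6a1, Cox8a and Ndufa4, the last once counted as a complex I subunit, differed by -0.31, -0.30 and -0.25 in vitro. Cox6c differed by -0.58 in vitro and -0.22 in vivo.

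The restricted forms were examined beside the muscle genes that were higher in the in vivo deleted array. The median in vivo difference of the 9 skeletal muscle markers above the cutoff was 2.08. A marker high on the in vivo deleted array alone can pass that cutoff. The linear levels of all 12 markers were also summed, a sum led by the brightest. Its log2 was 8.97, 9.16, 11.82 and 9.74 on the deleted and control arrays in vitro and then in vivo. Cox6a2, the heart and muscle form of Cox6a1, read 6.49, 6.95, 7.04 and 7.47 on these arrays, lower in both deleted arrays. Cox7a1, the heart and muscle form of Cox7a2, read 4.65, 5.54, 4.33 and 5.09 and was under the level cutoff on 3 of the 4. Cox8b, the heart and muscle form of Cox8a, read 5.00, 5.33, 6.39 and 5.86, with the in vivo deleted array the highest and the in vitro deleted array under the cutoff. The 3 restricted forms thus did not share a direction in vivo, and the part of muscle RNA in these values was not tested. Cox6b2, the testis form of Cox6b1, read 5.93, 6.44, 5.31 and 5.84, and Cox8c, another testis form, read 6.08, 6.06, 6.29 and 6.43. Cox4i2 and Cox7b2 were under the cutoff on every array. None of the 5 brown adipocyte markers reached the cutoff on any array.

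Ndufa4l2, a relative of Ndufa4 known as a target of the hypoxia response, separated the systems rather than the genotypes. Its levels were 6.78 and 6.91 on the in vitro deleted and control arrays and 8.62 and 9.05 on the in vivo deleted and control arrays. In the limma fit with system as a term, it was the only member called for the system coefficient, where 4.11% of all genes were called, at 1.99 ± 0.21 (SE) on the log2 scale higher in vivo and a Benjamini-Hochberg adjusted p of 0.0259. Under the alternatives run, the limma adjusted p of Ndufa4l2 ranged from 0.0098 to 0.0708 and was above 0.05 with no level filter (0.0708) and when a gene's probe sets were replaced by their median (0.0502). Ndufa4, its ubiquitous relative, read 10.83, 11.08, 10.60 and 10.81 on the same arrays. System and any difference in the handling of the in vitro and in vivo arrays cannot be told apart.

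The ATP synthase consists of the F1 head, which makes ATP, the rotating c-ring, the peripheral stalk that holds the head still, and small membrane subunits that bear on dimer formation. Of its 17 genes, 16 were lower in vitro, 6 by at least 1.5-fold, with a median of -0.46, and in vivo the median was -0.041. The small membrane subunits were the lowest: all 5 were lower, 4 by at least 1.5-fold, with a median of -0.72 in vitro and -0.18 in vivo. Atp5k, subunit e, read 10.48 and 11.60 in vitro and 10.88 and 11.18 in vivo, 2.18-fold lower in vitro, with probe sets from -1.37 to -1.09. Atp5l, Atp5md, Atp5j2 and Atp5mpl of the same group differed by -0.73, -0.72, -0.59 and -0.34 in vitro. The 5 subunits of the F1 head had a median of -0.25 in vitro and differed among themselves. Atp5b, the catalytic beta subunit, read 11.97 and 11.84 in vitro and 12.24 and 12.02 in vivo, slightly higher in both deleted arrays. Atp5a1, the alpha subunit, read 11.73 and 11.77 in vitro and 12.03 and 11.90 in vivo, but its probe sets ranged from -0.89 to -0.036 in vitro, the widest range of any member (0.85). Atp5c1, the gamma subunit of the rotating shaft, differed by -0.25 in vitro and 0.19 in vivo, and Atp5d, the delta subunit, by -0.52 and -0.019, with in vitro probe sets from -0.98 to -0.52. Atp5e, the small epsilon subunit of the head, read 9.66 and 10.57 in vitro and 9.80 and 10.35 in vivo, and both deleted arrays lay below both controls. Atp5g1, Atp5g2 and Atp5g3, which encode the same c-ring protein with different import signals, differed by -0.41, -0.46 and -0.12 in vitro. In the stalk, Atp5h and Atp5o differed by -0.64 and -0.49, Atp5o with probe sets from -1.22 to -0.49, while Atp5j and Atp5pb differed by -0.20 and -0.036.

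Probe sets within a gene mostly shared their direction in vitro. Of the 45 members with more than 1 probe set above the cutoff, 40 had all of them lower, and of all 155 member probe sets above the cutoff 146 were lower, with a median of -0.56. In vivo, 32 of the 45 had probe sets of 1 direction, lower for 21 of them, and 98 of 155 probe sets were lower with a median of -0.065.

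The level of each gene on an array was also set against its mean over the 4 arrays. These deviations sum to 0 for a gene, so a low level on 1 array raises the other 3. Members had a median of -0.36 on the in vitro deleted array, 0.21 on the in vitro control, 0.048 on the in vivo deleted array and 0.10 on the in vivo control. The same medians over all genes were -0.066, 0.020, 0.0067 and 0.033. The in vitro deleted array held the lowest of the 4 values for 69 of 89 members (77.5%, against 32.6% of all genes), and the in vitro control the highest for 46 (51.7%, against 26.0%). The in vitro control held the lowest value for 5 members (5.62%, against 20.3%). Set against the in vivo control array, the in vitro deleted array had a median member difference of -0.44 (all genes -0.092) and the in vitro control array of 0.11 (all genes -0.0062). In the former comparison 29 members were at least 1.5-fold lower, where 20.2% of all genes were. It sets cells of different systems beside each other, so the system and the handling of the arrays enter it, and the part of the 3′ imbalance was not tested by it.

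**Figure D3:**
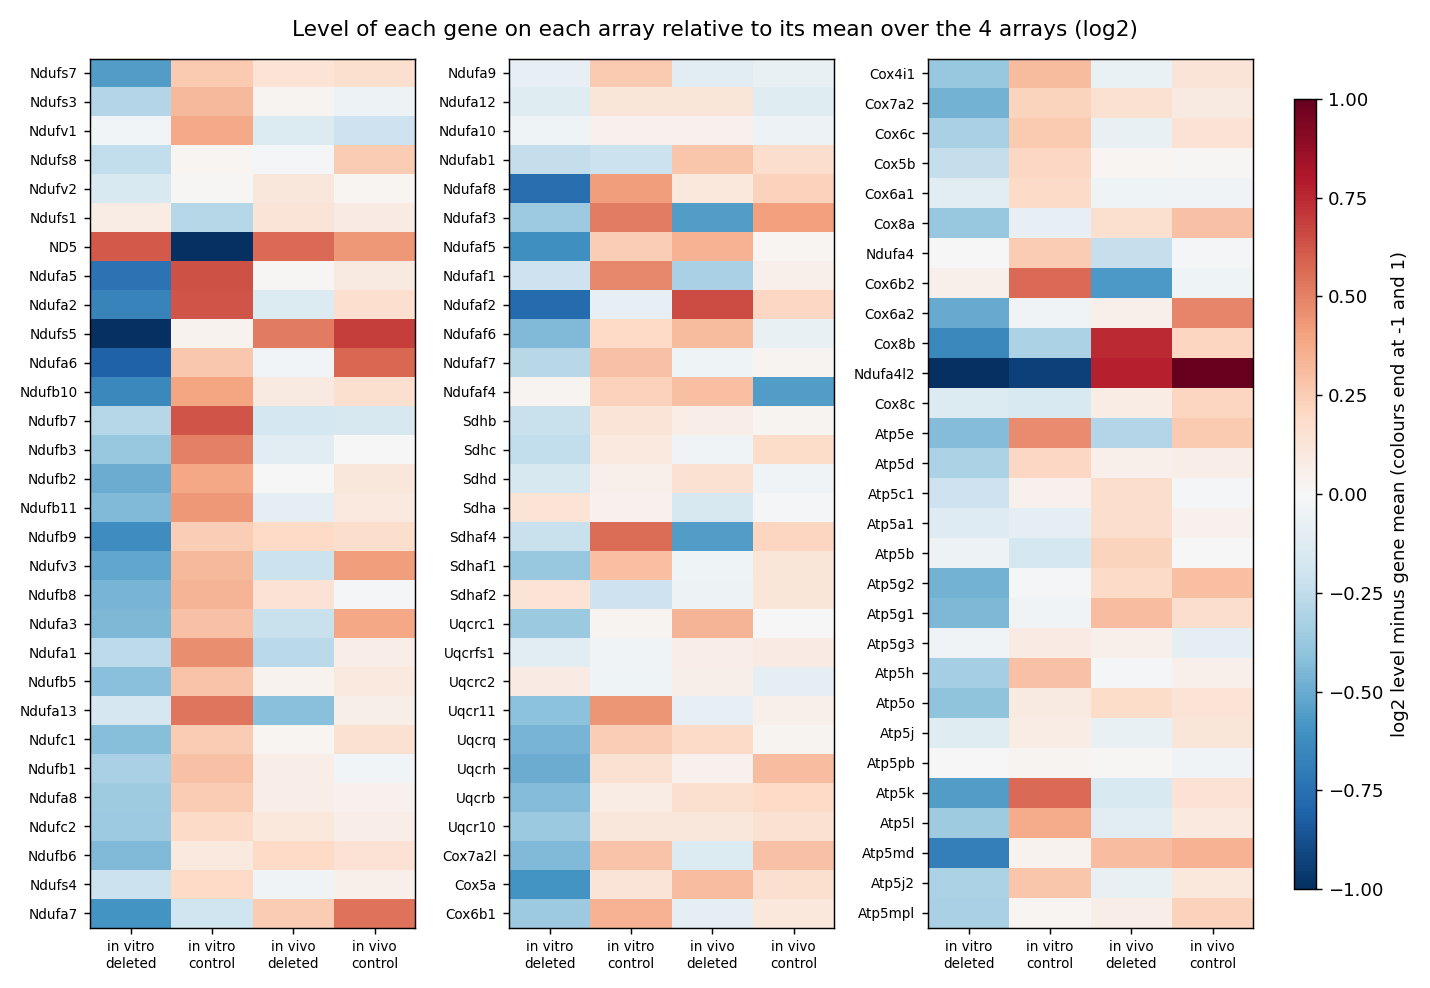
Log2 level of each of the 89 genes on each array minus its mean over the 4 arrays (blue, lower; red, higher; colours end at -1 and 1), ordered by complex, role and in vitro difference. The first column of each panel, the in vitro deleted array, is blue for most genes (median -0.36), and the second, the in vitro control, is red for most (median 0.21).

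Because these are mostly short genes, the differences were set beside gene span, the distance from the first to the last base with introns included. Transcript length was not used here. The nuclear-encoded members above the cutoff had a median span of 7.44 kb, from 0.932 to 106 kb, against 23.3 kb over all genes. Among all genes the in vitro difference varied with span, with a median of -0.22 under 5 kb and 0.026 over 50 kb. Members were lower than all genes of like span in the bins that held over 10 of them: the median was -0.68 against -0.22 under 5 kb (28 members), -0.59 against -0.19 from 5 to 10 kb (33), -0.61 against -0.087 from 10 to 20 kb (13) and -0.20 against -0.024 from 20 to 50 kb (12). In the shortest bin 57.1% of members and 22.2% of all genes were at least 1.5-fold lower. In vivo the medians of members in these bins ran from -0.14 to 0.095 and those of all genes from -0.046 to -0.0016. Spearman's rho between span and the in vitro difference was 0.293 across 88 members and 0.258 across 10902 genes. In vivo it was 0.329 across members and -0.0393 across all genes. These are descriptions across genes that share the same 2 arrays, and genes are not independent replicates.

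**Figure D4:**
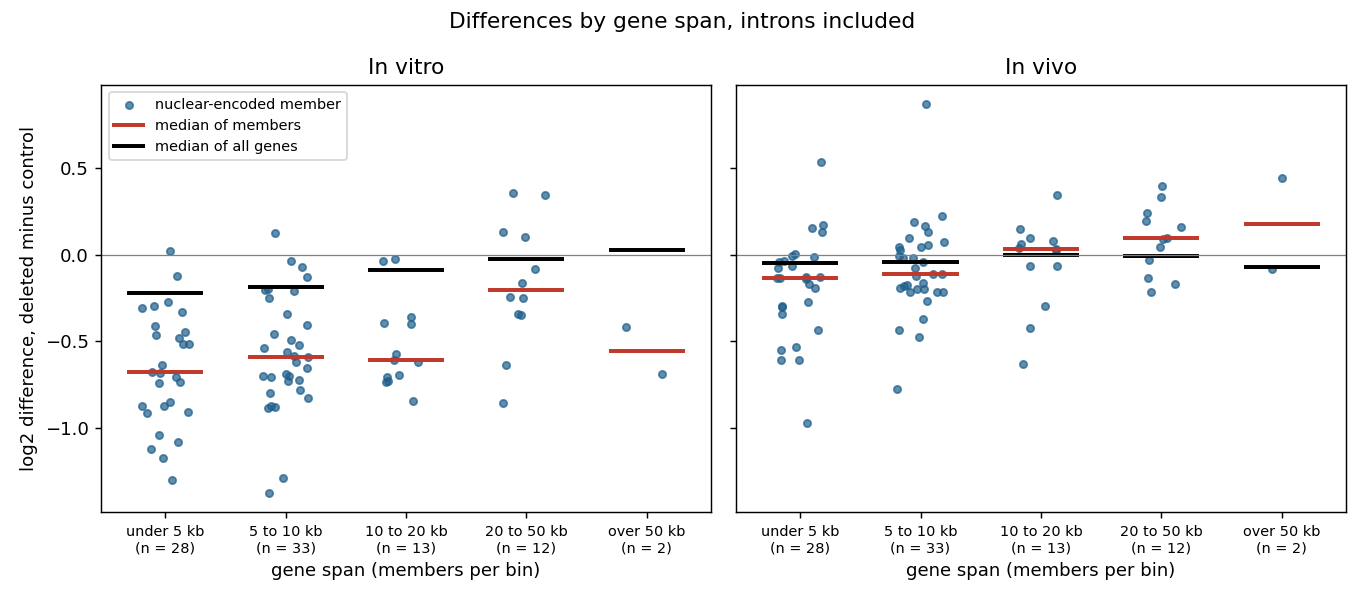
Log2 difference, deleted minus control, of the 88 nuclear-encoded members (points) by gene span, in vitro (left) and in vivo (right), with the median of members (red) and of all genes (black) in each bin. In vitro the red lines lie under the black ones in every bin, and in vivo they lie close together except in the bin over 50 kb, which holds 2 members.

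With the trend on span removed over all genes, the members at least 1.5-fold lower in vitro numbered 18 in place of 27 for complex I, 1 in place of 2 for complex II, 1 in place of 3 for complex III, 3 in place of 5 for complex IV and 2 in place of 6 for the ATP synthase. The medians were then -0.49, -0.29, -0.28, -0.16 and -0.27 for these complexes. The accessory subunits of complex I had a median of -0.52, and the core and Rieske proteins of complex III had one of 0.15. Role groups with a lower in vitro median did not always have a shorter median span. The subunits of complex II had the longest median span of the role groups, 19.7 kb. The accessory and core subunits of complex I had median spans of 7.80 and 8.89 kb, the small subunits and the core and Rieske proteins of complex III of 3.83 and 13.0 kb, and the small membrane and F1 head subunits of the ATP synthase of 7.18 and 7.13 kb. Gene span counts introns and is not the length of the transcript, so these values are not a test of the 3′ imbalance. The part of that imbalance in the in vitro differences was not tested.

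The deletion shared by both systems was fitted with limma over all 4 arrays with system as a term, which leaves 1 residual degree of freedom, so the test rests largely on the spread pooled over genes. None of the 89 members passed an adjusted p of 0.05, and of all genes 0% did. The smallest limma adjusted p among members was 0.679. At an unadjusted p under 0.05 in limma, 9 members were lower (10.1%) and 0 higher, where 6.95% of all genes passed in either direction. The 9 were Ndufaf3, Sdhaf4, Ndufa6, Ndufv3, Atp5e, Ndufa3, Ndufa13, Cox7a2l and Ndufa2, all with a limma adjusted p of 0.679. Their limma estimates ran from -0.92 ± 0.20 (SE) for Ndufaf3 to -0.58 ± 0.21 for Cox7a2l. ND5 was estimated at 1.19 ± 0.53. Across the 88 nuclear-encoded members, Spearman's rho between the in vitro and in vivo differences was 0.366, and across all genes it was 0.146, as a description across genes. Of the 43 members at least 1.5-fold lower in vitro, 32 were lower in vivo and 5 by at least 1.5-fold: Ndufaf3, Sdhaf4, Ndufv3, Ndufa3 and Ndufa6. Over all 89 members, 55 were lower in vivo and 5 by at least 1.5-fold. The like overlap over all genes is not given here, so no shared effect is read from these counts.

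Genes of the same pathway that the naming rule does not reach were read from lists, and no gene of any of these lists passed limma's deletion test at an adjusted p of 0.05. Assembly factors of complex III had the lowest median of these lists in vitro. Of 5, all were lower, 4 by at least 1.5-fold, with a median of -0.66 in vitro and -0.39 in vivo. Uqcc3, which stabilises cytochrome b, read 7.47 and 8.60 in vitro and 8.04 and 8.44 in vivo, 2.18-fold lower in vitro. Bcs1l, which inserts the Rieske protein, differed by -0.66 and -0.70. Of 9 further assembly factors of complexes I and II, 7 were lower in vitro, 4 by at least 1.5-fold, with a median of -0.34, and in vivo it was 0.097. Nubpl, which delivers iron-sulphur clusters to complex I, differed by -0.87 and -0.22, and Timmdc1, a factor for the membrane arm, by -0.072 and 0.66. Of 16 complex IV assembly factors, 13 were lower in vitro, 3 of them by at least 1.5-fold and 1 higher by that size, with a median of -0.37. Cox17, a copper chaperone, differed by -0.85 and 0.23, Surf1, a factor for heme-containing Cox1, by -0.62 and -0.78, and Cox15, an enzyme of heme A synthesis, by 0.78 and -0.25. Cox20, a chaperone of Cox2, differed by -0.24 in vitro and -0.91 in vivo.

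In vitro the carriers of electrons and the genes around the chain lay nearer to the background than the members did. In vivo this did not hold for every list. The members' medians were -0.57 in vitro and -0.065 in vivo, against -0.063 and -0.032 over all genes. Of all genes, 57.5% were lower in vitro and 53.6% in vivo. Of 8 respiratory chain genes with other names, all were lower in vitro, but 1 by at least 1.5-fold, with a median of -0.18. In vivo 5 were lower and 3 higher, with a median of -0.17. Dmac2l, known as coupling factor B, had the largest in vivo difference, with 5.37 in the deleted array and 6.47 in the control (2.14-fold lower), and differed by -0.26 in vitro. Cyc1, the cytochrome c1 of complex III, differed by -0.17 in vitro and 0.36 in vivo, and Cycs, cytochrome c, by -0.11 and 0.69. Etfb, which feeds electrons from fatty acid oxidation, differed by -0.83 and -0.34. Of 17 citric acid cycle genes, 11 were lower in vitro with a median of -0.063, and 11 were higher in vivo with a median of 0.072. Idh3a, a subunit of the NAD-dependent isocitrate dehydrogenase, differed by 0.66 and 0.68, and Suclg1, a subunit of succinyl-CoA ligase, by -0.66 and -0.056. Of 15 carriers and import genes, 11 were lower in vitro with a median of -0.16, and 14 were higher in vivo with a median of 0.24. Tomm40, the channel of the outer membrane, differed by -0.35 and 0.74, and Hspa9, the matrix chaperone mortalin, by 0.62 and 0.17.

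Regulators of mitochondrial biogenesis did not share the direction of the members. Of 9, 6 were higher in vitro with a median of 0.26, and all 9 were higher in vivo with a median of 0.27. Of all genes, 57.5% were lower in vitro and 53.6% in vivo, with medians of -0.063 and -0.032. Myc read 9.70 and 9.05 in vitro and 10.19 and 9.20 in vivo, 1.57-fold and 1.99-fold higher. Ppargc1b, a coactivator of respiratory genes, differed by -0.36 and 0.85, and Nrf1, which encodes the factor whose motif is shown above, by -0.34 and 0.25. Of 12 genes for transcription and maintenance of mitochondrial DNA, 8 were lower in vitro with a median of -0.21, and 9 were higher in vivo with a median of 0.086. Tfam, which packages mitochondrial DNA and starts its transcription, differed by -0.17 in vitro and 0.33 in vivo, against 2.24 and 0.13 for ND5. Mterf4, a factor of mitochondrial ribosome assembly, differed by -0.76 and 0.055, and Tfb1m, a methylase of mitochondrial ribosomal RNA, by -0.20 and -0.69. The 4 genes for assembly and regulation of ATP synthase had medians of 0.18 and -0.022, with Fmc1 at -0.97 in vitro and Atpaf1, a chaperone of the F1 head, at -0.19 in vivo.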

How the data were processed

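RNA of 4 groups of dermal fibroblasts was measured on 4 arrays, 1 per group, grouped by their titles. The cRNA was biotin-labelled and made from T7 oligo(dT)-primed poly(A) RNA, per the labels' protocols. The deposited table holds log2 values from 2.87 to 13.79 for 45101 probe sets. The log2 scale was read from the values. Software, background correction and normalization are not given in the sources used here, and the precision is limited by the number of arrays. The members and lists were chosen with earlier results of these data known.

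The values were quantile normalized over the 4 arrays. The platform annotation named 1 gene for 34958 probe sets, several for 932 and none for 9211, and 34754 symbols were matched to RefSeq (GRCm38.p6). The 64 control probe sets were kept out. Each gene took its brightest probe set. The level cutoff, the 40th percentile of gene means, kept 10916 of 18193 genes. Differences are deleted minus control, counted at 1.5-fold, a fold being 2 to the power of the difference. limma 3.58.1 (R 4.3.3) fitted deletion and system over all genes, with Benjamini-Hochberg adjustment at 0.05. Levels of different genes are not compared, since probes differ in efficiency. The arrays were made from bulk RNA. The limma p-values and SEs rest on how far the deletion difference departs between the systems and on the spread pooled over genes. They do not measure a spread between replicates. Gene span covered 99.9% of genes. Scripts were tested on simulated data.

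Genes named were ND5, isoform pairs, the 8 highest and 8 lowest members per comparison, the highest, lowest and most central of each role group, members called by limma, and from each pathway list the gene with the largest difference in each comparison and up to 3 more. Tfam, Cyc1, Nrf1, members of the motif set and other members named for their role were chosen after their values were seen. Alternatives were the values as deposited, median centring, a pseudocount of 15.4 (the 20th percentile of linear values), level cutoffs of none and of the 60th percentile, a gene's probe sets replaced by their median, removal of _x_at and _s_at probe sets, removal of the span trend (lowess, fraction 0.3), a 2-fold threshold, a variance trend and no system term. Another reference array and probe sets of 1 direction were added after seeing the data.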

Additional observations from a re-analysis of the deposited data

How the results depend on the processing

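Over the values as deposited, centring, pseudocount, level filter and probe set alternatives, the count of members at least 1.5-fold lower in vitro ran from 37 to 45 (main 43) and their median from -0.60 to -0.51. Removing the span trend gave 25 in vitro with a median of -0.38, and in vivo 3 lower (main 5) and 2 higher (main 1). Median centring gave 3 lower in vivo. At a 2-fold threshold 7 were lower in vitro, and 0 lower and 0 higher in vivo. With the in vivo control array as the in vitro reference, an alternative chosen after seeing the data, 29 members were at least 1.5-fold lower, against 20.2% of all genes, with a median of -0.44. The deletion coefficient in limma called 0 members in every alternative. The system coefficient called 0 with no level filter and 0 when the median over probe sets was taken (main 1), and no value of a called result reversed. With the median over probe sets Sdha moved from 0.10 to -0.36 in vitro and Uqcrq from -0.71 to -0.13, and 13 genes moved with the other reference array. The cause was not tested. No paired analysis was possible because no replicate numbers are given, beyond the limma fit itself, whose system term sets each deleted array against the control of its own system. Leaving out an array removes a group and leaves no residual degree of freedom, so no such fit was made. The signal of dim genes near the cutoff, such as Cox8b, is limited by the background.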

Other observations

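Probe sets that name several genes were left out of the gene table, and 10 of these named at least 1 gene that the rule would take. Of the 8 above the level cutoff, all were lower in vitro, with a median log2 difference of -0.46 and a range from -1.14 to -0.091. In vivo 6 of the 8 were lower, with a median of -0.22 and a range from -0.33 to 0.25.

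The 2 white adipocyte markers above the cutoff were higher on both in vitro arrays than on both in vivo arrays. Adipoq, the adipocyte hormone adiponectin, read 11.04 and 11.15 on the in vitro deleted and control arrays and 9.33 and 8.63 on the in vivo deleted and control arrays, so it was also 1.63-fold higher in the deleted array in vivo. Fabp4, a fatty acid carrier of adipocytes, read 11.71 and 11.79 in vitro and 10.14 and 9.91 in vivo. The difference of the systems was not tested for these genes here.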
